A study of Mus musculus with 4 samples.

Results

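The p53 pathway miRNAs were followed in mouse naive CD4+ T cells, as 8 mature miRNAs out of 1073 in the deposited table. The set holds mmu-miR-34a-5p, the arms of its relatives (mmu-miR-34b-5p, mmu-miR-34b-3p, mmu-miR-34c-5p and mmu-miR-34c-3p), and mmu-miR-192-5p, mmu-miR-194-5p and mmu-miR-215-5p. They were chosen by name as miRNAs described as direct p53 targets, and all 8 names were found in the table by an exact match. The cells came from the spleen of wild type mice, were transfected with either ASO or CRO, activated with antibodies to CD3 and CD28, and harvested at 48 h for small RNA sequencing. Each group held 2 samples, called libraries a and b below, and CRO is the control. The labels expand neither name, and are silent on whether a group's samples are separate mice or cultures. The p-values therefore measure only how far these samples differ, and that difference may be technical. Both groups were transfected and no untransfected cells were analysed here, so the values compare ASO with CRO and do not compare transfected with untransfected cells.

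p53 is a transcription factor that DNA damage and other stresses stabilise. It activates genes for cell cycle arrest and apoptosis, and some of its direct targets encode miRNAs. A miRNA is cut from a hairpin into a 5p and a 3p arm, 1 of which usually persists and pairs with mRNAs mainly through its seed, bases 2 to 8. miR-34a is the best known p53-induced miRNA and represses cyclins, cyclin-dependent kinases and Bcl2; in mouse B cell development it represses Foxp1. miR-34b and miR-34c come from a shared transcript and are known for high levels in testis and multiciliated epithelium. miR-192, miR-194 and miR-215 are known for high levels in liver, kidney and intestinal epithelium, and were described as p53 targets in human cancer cells.

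The mature sequences show which of these miRNAs read the same target sites. They are written 5′ to 3′ from RefSeq (GRCm38.p6), with the seed in capitals; the table used holds 7 of the 8, and mmu-miR-34c-5p is named only. The miR-449 sequences are shown because they carry the same seed.
mmu-miR-34a-5p: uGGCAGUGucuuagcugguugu
mmu-miR-34b-5p: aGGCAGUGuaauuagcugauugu
mmu-miR-449a-5p: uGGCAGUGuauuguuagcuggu
mmu-miR-449c-5p: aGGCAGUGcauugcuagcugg
mmu-miR-34b-3p: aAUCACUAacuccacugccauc
mmu-miR-34c-3p: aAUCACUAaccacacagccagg
mmu-miR-192-5p: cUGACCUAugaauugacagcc
mmu-miR-215-5p: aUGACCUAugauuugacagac
mmu-miR-194-5p: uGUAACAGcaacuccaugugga

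Among the 1679 mature names of that table, the seed GGCAGUG of miR-34a-5p was found in 4, the seed AUCACUA in the 3p arms of miR-34b and miR-34c alone, and UGACCUA in miR-192-5p and miR-215-5p alone. miR-34c-5p is missing from those names, so the count of 4 could not include it. miR-194-5p was the only carrier of its seed. miR-192-5p and miR-215-5p are 21 bases long and differ by an edit distance of 3, so their reads can be told apart only where the mapping allows few mismatches, a setting not given in the sources used here.

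On GRCm38, Mir34a lies at chr4:150068454-150068555 on the plus strand, where it partly overlaps an exon of the unclassified gene Gm37795 on the same strand. Mir34b (chr9:51103562-51103645) and Mir34c (chr9:51103034-51103110) lie on the minus strand, 451 bases apart, opposite an intron of Btg4. Mir194-2 (chr19:6264643-6264728) and Mir192 (chr19:6264844-6264932) are 115 bases apart on the plus strand with no other annotated gene over them. Mir194-1 (chr1:185313319-185313385) and Mir215 (chr1:185313581-185313692) are 195 bases apart on the plus strand, in an intron and an exon of the antisense gene 2010103J01Rik and opposite an intron of Iars2. miR-194-5p has the same sequence from both of its hairpins, so its reads cannot be assigned to either. The submitters' processing notes name mm9, so these positions describe the annotation and were not joined to their data.

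The deposited table gives a mean normalized count for each group, and the read counts of each library were decoded from those means. Without miR-155-5p, whose ASO counts could be decoded in more than 1 way, the libraries held 8668774 and 8930660 reads in ASO and 4949804 and 2812572 in CRO. Checked against the labelled cell type, miR-155-5p, miR-142a-3p, miR-142a-5p and miR-150-5p, which are known for high levels in lymphocytes, ranked 1, 4, 7 and 9 by base mean (the mean normalized count over all 4 libraries). The fifth marker of that list, miR-181a-5p, which is known from thymocytes and T cells, ranked 61, at normalized counts of 4946 and 5277 in ASO against 7143 and 8874 in CRO. Its log2 ratio was -0.65 and did not pass (authors' deposited table, adjusted p = 1; limma adjusted p = 0.29). miRNAs used here as markers of other cells were also counted, and which cells they came from was not tested. The 8 epithelial markers used here summed to normalized counts of 5069 and 5273 in ASO libraries a and b and 6594 and 6111 in CRO libraries a and b, the 4 erythroid markers to 1655 and 1419 against 2429 and 2481, and the 2 myeloid markers to 5599 and 5669 against 6189 and 7239. These 3 sums were lower in both ASO libraries. Taken singly, the groups overlapped for miR-144-5p, miR-141-3p, miR-200a-3p, miR-429-3p, miR-205-5p and miR-375-3p, and the rest were lower in both ASO libraries. miR-205-5p and miR-375-3p were low, at base means of 1.44 and 1.17, so they add little to the epithelial sum. The hepatocyte marker miR-122-5p was higher in both ASO libraries, at 75.02 and 84.4 against 35.8 and 25.1 (authors' deposited table, adjusted p = 0.76). A lack of overlap, in 1 direction or the other, was found for 41.9% of the 482 miRNAs with a base mean of 10 or more. The endothelial and platelet markers summed to 1687 and 2334 against 1935 and 1399, and the stromal markers to at most 9.85, with miR-145a-5p at 0 in both CRO libraries. The part of other cells in the results below was not tested. In bulk RNA, fewer cells of a type and less RNA per cell cannot be told apart.

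By the authors' deposited table, none of the 8 p53-linked miRNAs had an adjusted p under 0.05, while 1.21% of all 1073 miRNAs did. None passed an unadjusted p of 0.05 there either (2.8% of all). Every adjusted p of the 8 was 1. 4 of them had a base mean of 10 or more, namely miR-34a-5p, miR-194-5p, miR-192-5p and miR-34c-5p. The other 4, miR-34b-3p, miR-215-5p, miR-34b-5p and miR-34c-3p, were low, at base means of 7.94, 3.71, 2.18 and 1.54.

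**Figure D1:**
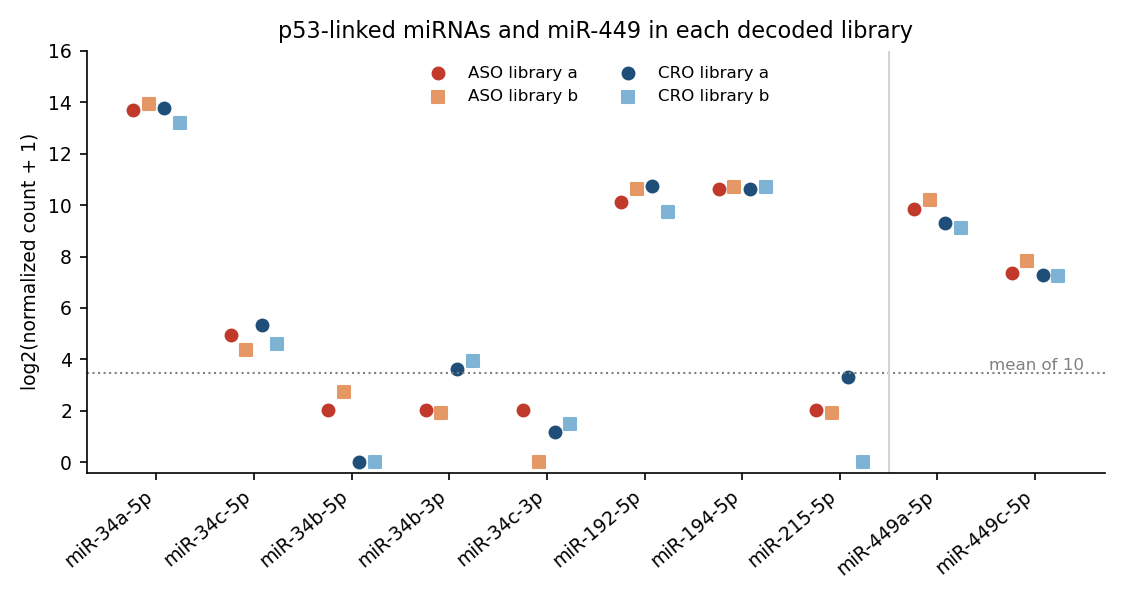
Each point is 1 decoded library; the y axis is log2(normalized count + 1) and the dotted line marks a normalized count of 10. miR-34a-5p lies far above its relatives in all 4 libraries, and miR-34b-5p is at 0 in both CRO libraries. Among the 4 members with a base mean of 10 or more, miR-194-5p differs least between libraries.

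miR-34a-5p was the most counted of the 8, ranking 44 of 1073 with a base mean of 13061. Its normalized counts were 13353 and 15627 in ASO libraries a and b and 13917 and 9347 in CRO libraries a and b. The groups overlapped, because CRO library a lay above ASO library a. The authors' means of 14490 in ASO and 11632 in CRO gave a log2 ratio of 0.32 (p = 0.46 and adjusted p = 1, authors' deposited table). limma, fitted to the decoded libraries on log2(normalized count + 1), gave 0.34 ± 0.26 (SE), with a 95% interval of -0.27 to 0.96 (limma adjusted p = 0.71). That interval covers values on both sides of 0. Counting error was small beside the difference between libraries: the ratio of pooled reads was 1.20 with a 95% counting interval of 1.18 to 1.22, while the CRO libraries differed from each other by 0.57 on the log2 scale. Without CRO library a, the log2 ratio was 0.63 (limma adjusted p = 0.083), and without CRO library b it was 0.05.

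The 3p arm of the same hairpin, miR-34a-3p, is the strand that is usually discarded. It was read 65 and 50 times in ASO libraries a and b and 24 and 11 times in CRO libraries a and b, or 39.97, 35.2, 30.7 and 19.8 as normalized counts. Both ASO values lay above both CRO values, as in 1 direction or the other for 41.9% of the 482 miRNAs with a base mean of 10 or more. The log2 ratio was 0.57 (authors' deposited table, adjusted p = 1), and 0.89 without CRO library a and 0.28 without CRO library b, passing in neither fit. The 5p share of the hairpin's reads was 99.7% and 99.8% in ASO libraries a and b and 99.8% in each CRO library, with exact 95% intervals of 99.6% to 99.8%, 99.7% to 99.8%, 99.7% to 99.9% and 99.6% to 99.9%. No molecular identifiers are described for these PCR reads, so such intervals cover counting error only.

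miR-34c-5p, known from testis and ciliated epithelium, was a minor species here. It had 49 and 28 reads in ASO libraries a and b and 31 and 13 in CRO libraries a and b, or normalized counts of 30.1, 19.7, 39.6 and 23.4. The groups overlapped, and the log2 ratio was -0.34 (authors' deposited table, adjusted p = 1; limma -0.31 ± 0.42 SE, 95% interval -1.28 to 0.66). Its sign turned without CRO library a (0.06), and it was -0.68 without CRO library b, passing in neither fit. The level of miR-34a-5p was 351 to 794 times that of miR-34c-5p across the 4 libraries. The other arm, miR-34c-3p, was read 5 and 0 times in ASO and 1 time in each CRO library. The pooled ratio of miR-34c-3p was 1.10, with a counting interval of 0.180 to 11.5, so no difference was detectable at this depth.

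The miR-34b arms are shown within their hairpin, since the counts of these arms were arranged differently in ASO and CRO. The arms are in capitals in the RefSeq sequence (GRCm38.p6, minus strand).
Mir34b: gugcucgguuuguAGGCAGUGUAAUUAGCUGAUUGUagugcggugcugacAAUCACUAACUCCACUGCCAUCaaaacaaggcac

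miR-34b-5p was read 5 and 8 times in ASO libraries a and b and was at 0 in both CRO libraries. How well its reads can be told apart from those of miR-34c-5p was not examined, since the sequence of miR-34c-5p was missing. A floor of 3 reads over both CRO libraries is a normalized count of 2.24. Against that floor, the pooled level of miR-34b-5p was 1.90-fold higher in ASO (authors' deposited table, adjusted p = 1). That value leaves out counting error in ASO, and the counting interval of the pooled ratio starts lower, at 1.34. miR-34b-3p went the other way, with 5 and 4 reads in ASO and 9 and 8 in the shallower CRO libraries, or normalized counts of 3.07, 2.81, 11.5 and 14.4. The authors' means of 2.94 and 12.9 gave a log2 ratio of -2.14 (p = 0.080 and adjusted p = 1, authors' deposited table). The groups did not overlap for either arm, which held for 26.9% of the 591 miRNAs with a base mean under 10. That share includes 264 miRNAs with a base mean under 1, below both arms, and the share at the level of the arms was not counted. A difference of at least 2-fold between the group means was found for 66.7% of those 591. The share that differed by as much as either miR-34b arm was not counted.

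In the limma fit with no filter on low values, miR-34b-3p had a log2 ratio of -1.81 ± 0.67 (SE) and miR-34b-5p of 2.38 ± 1.02, each on log2(normalized count + 1). Their unadjusted p-values of 0.011 and 0.026 were both under 0.05, which 7.64% of all miRNAs reached, and their limma adjusted p-values were 0.32 and 0.52. An adjusted p under 0.05 was reached by 1.4% of all miRNAs in that fit and by none of the 8. miR-34b-5p passed without ASO library a (log2 ratio 2.73, limma adjusted p = 0.021) or without ASO library b (2.03, limma adjusted p = 4.4e-05). In both fits the only group left with 2 libraries is CRO, at 0 reads in each, so no difference between libraries that hold reads enters its error. Taking the hairpin as a whole, 13 of its 22 reads in ASO came from the 5p arm, or 59.1% with an exact 95% interval of 36.4% to 79.3%. In CRO 0 of 17 reads did, which allows a share of up to 17.6% when a count of 0 is read as fewer than 3 reads, and the exact 95% interval reaches 19.5%. Those totals pool 2 libraries a group and were chosen for display after the counts were seen, so no test is given. By library, the exact 95% intervals of the 5p share were 18.7% to 81.3% and 34.9% to 90.1% in ASO libraries a and b. They reached 33.6% and 36.9% in CRO libraries a and b, so intervals of the 2 groups overlapped. In the neighbouring miR-34c hairpin the 5p arm held 93.9% of 82 reads in ASO and 95.7% of 46 in CRO.

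**Figure D2:**
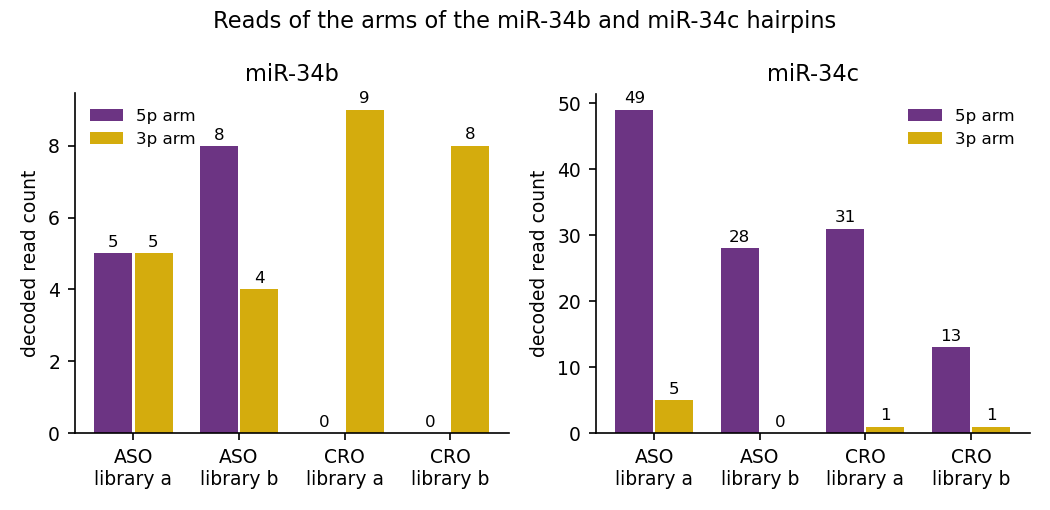
Bars are decoded read counts (not scaled for depth, which is higher in ASO) of the 5p and 3p arms of the miR-34b and miR-34c hairpins in each library. For miR-34b the 5p arm has 5 and 8 reads in ASO and 0 in both CRO libraries, while the 3p arm has 5, 4, 9 and 8.

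Among the 5p arms of the miR-34 family, nearly all of the level was that of miR-34a-5p. Summed over miR-34a-5p, miR-34b-5p and miR-34c-5p, the normalized counts were 13387 and 15653 in ASO and 13957 and 9370 in CRO. This sum, and the one with miR-449 below, was taken by family name, since the seeds of miR-34c-5p and miR-449b were not matched here. miR-34a-5p made up 99.8% of the ASO sum and 99.7% of the CRO sum. The log2 ratio of the summed means was 0.32, beside an SD of 0.31 between the libraries of a group on the same scale, and was not tested. Without CRO library a it was 0.63 and without CRO library b 0.06.

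miR-194-5p and miR-192-5p stood near each other in level, ranking 105 and 113 with base means of 1619 and 1317. miR-194-5p had normalized counts of 1567 and 1651 in ASO libraries a and b and 1599 and 1658 in CRO libraries a and b. These 4 values lay close together and the groups overlapped. The log2 ratio was -0.02 (authors' deposited table, adjusted p = 1), and limma gave a 95% interval of -0.53 to 0.50. Within groups, miR-194-5p differed by 0.08 (ASO) and 0.05 (CRO) on the log2 scale, and 83.9% and 92.7% of the 273 miRNAs with a base mean of 100 or more differed more.

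miR-192-5p had normalized counts of 1126 and 1566 in ASO and 1730 and 846 in CRO. The CRO libraries held both its highest and its lowest value, so the ASO values lay between them. Its log2 ratio was 0.06 (authors' deposited table, adjusted p = 1), with a limma 95% interval of -0.72 to 0.99. The CRO libraries differed by 1.03 on the log2 scale, and only 6.96% of the 273 miRNAs differed more. The direction of miR-192-5p followed the library left out: the log2 ratio was 0.65 without CRO library a and -0.38 without CRO library b, and passed in neither fit.

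Although Mir192 and Mir194-2 are neighbours, the level of miR-194-5p relative to miR-192-5p was not constant. The quotient was 1.39 and 1.05 in ASO libraries a and b and 0.924 and 1.96 in CRO libraries a and b. The 3p arm miR-192-3p, at a base mean of 9.51, had 12 and 17 reads in ASO and 9 and 4 in CRO, or normalized counts of 7.38, 12.0, 11.5 and 7.19, and the groups overlapped. miR-194-2-3p, which marks the Mir194-2 hairpin, had 4 and 3 reads in ASO and 1 and 4 in CRO. The epithelial marker sum given above was lower in both ASO libraries and miR-122-5p higher. Of the 482 miRNAs with a base mean of 10 or more, 41.9% had groups that did not overlap. The part of epithelial or liver RNA in the levels of miR-192-5p and miR-194-5p was not tested.

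miR-215-5p shares its seed with miR-192-5p but was 355 times lower in base mean. It was read 5 and 4 times in ASO, 7 times in CRO library a and 0 times in CRO library b. Its log2 ratio from the means was -0.60 (authors' deposited table, adjusted p = 1), while limma on the log scale gave 0.32 ± 0.99 (SE). The pooled ratio was 0.565 with a counting interval of 0.187 to 1.78, so no direction was detectable.

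**Figure D3:**
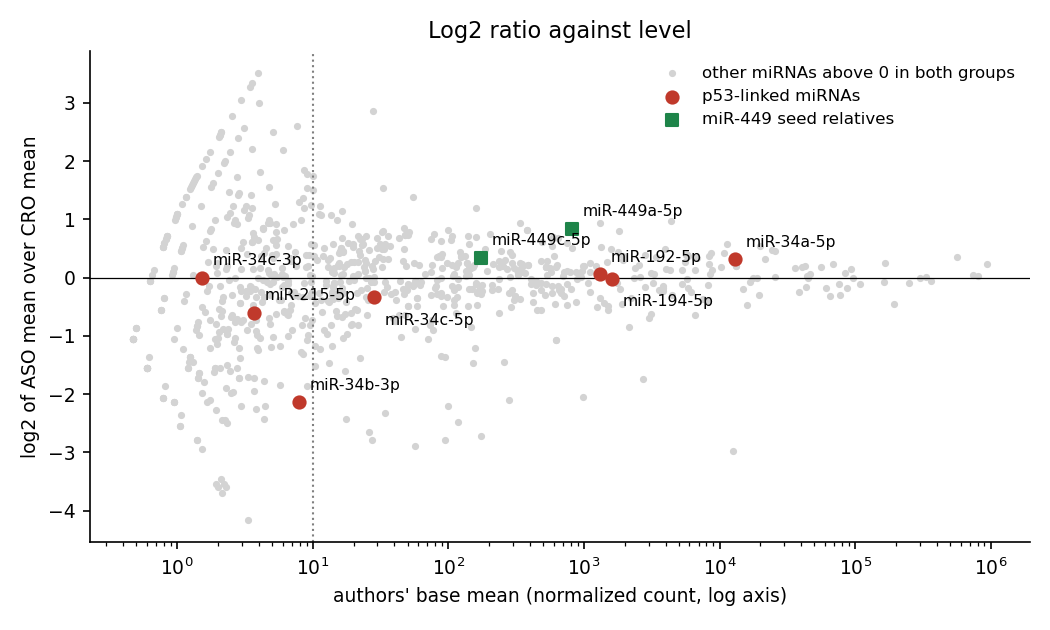
Each point is a miRNA above 0 in both groups; the x axis is the authors' base mean (log axis) and the y axis the log2 of the ASO mean over the CRO mean. The spread widens to the left of the dotted line at a base mean of 10, where miR-34b-3p lies at -2.14, and the 4 members to its right lie between -0.34 and 0.32.

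Among the 4 p53-linked miRNAs with a base mean of 10 or more, 2 had a log2 ratio above 0 and 2 below. Their median was 0.02, beside 0.04 over all 482 miRNAs at that level, of which 53.1% lay above 0. None of the 4 differed by 2-fold between the group means, which 8.3% of the 482 did. In limma none passed an adjusted p of 0.05 (3.11% of the 482) or an unadjusted one (12.2%).

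The miR-449 miRNAs lie in an intron of Cdc20b on its own strand. miR-449a-5p and miR-449c-5p share the miR-34 seed, and the cluster acts with miR-34b and miR-34c in multiciliated cells, and in human cells they were described as E2F1 targets. miR-449a-5p had 1515 and 1658 reads in ASO and 488 and 303 in CRO, or normalized counts of 932, 1166, 624 and 544. Both ASO values lay above both CRO values. Groups did not overlap, in 1 direction or the other, for 41.9% of the 482 miRNAs with a base mean of 10 or more. The log2 ratio of 0.84 had an unadjusted p of 0.021 in the authors' deposited table, where 2.8% of all miRNAs were under 0.05. It did not pass after adjustment (adjusted p = 0.97). limma gave 0.84 ± 0.25 (SE), with a 95% interval of 0.26 to 1.41 (adjusted p = 0.18). It passed in limma only without CRO library a (log2 ratio 0.94, adjusted p = 0.024), and lay between 0.68 and 0.999 over the fits without 1 library.

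miR-449c-5p had normalized counts of 163 and 226 in ASO and 156 and 151 in CRO, a log2 ratio of 0.34 (authors' deposited table, adjusted p = 1). It ranged from 0.09 without ASO library b to 0.56 without ASO library a, and passed in no fit without 1 library. miR-449b was read 1 time, in ASO library a. Added to that miR-34 sum, the miR-449 miRNAs made up 7.89% of it in ASO and 5.95% in CRO. miR-34a-5p was 13.4 to 22.3 times as high as miR-449a-5p across the libraries. miR-449a-5p and miR-449c-5p are also the markers of multiciliated cells used here, and whether such cells were present was not tested.

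**Figure D4:**
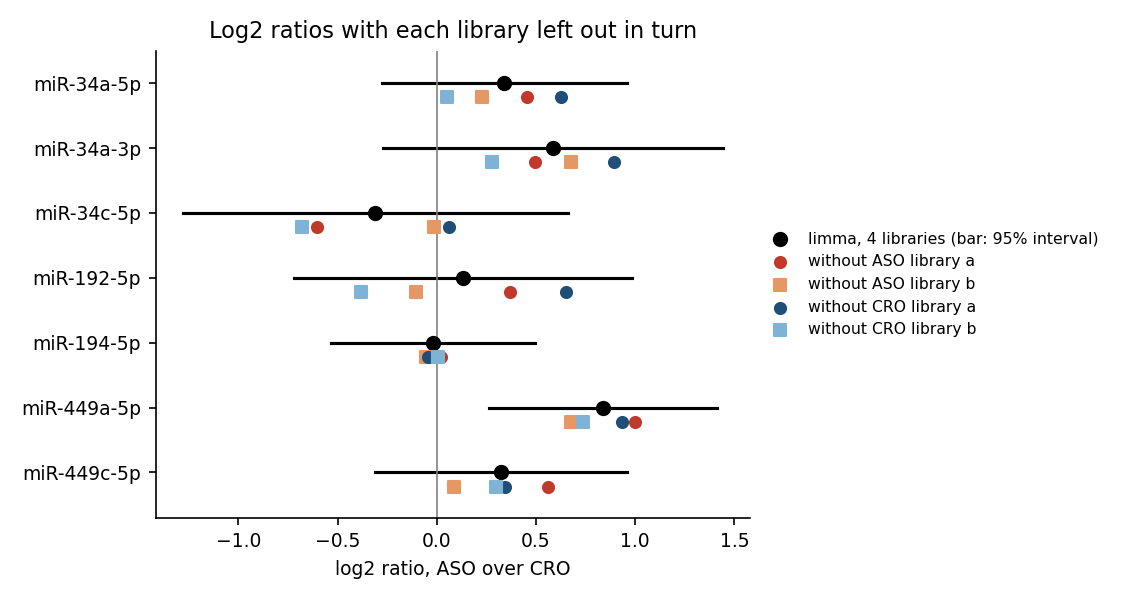
Black points are limma log2 ratios from 4 libraries with 95% intervals as bars, and coloured points are fits without 1 library. Shown are the members, miR-34a-3p and the seed relatives with a base mean of 10 or more. miR-192-5p spreads from -0.38 to 0.65, miR-194-5p stays near 0, and the miR-449a-5p points all lie above 0.

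A wider list of 14 miRNAs described as raised by p53, through transcription or processing, held 13 in the table and 10 with a base mean of 10 or more. None passed in the authors' deposited table, where 5 of the 10 lay above 0 and 5 below, with a median log2 ratio of -0.03. Over all miRNAs, 1.21% passed that adjusted p, and the 482 at this level had 53.1% above 0 and a median of 0.04. Above 0 were miR-16-1-3p (0.73), miR-15a-5p (0.33), miR-107-3p (0.16), miR-22-3p (0.14) and miR-16-5p (0.03). miR-15a and miR-16 repress Bcl2, and p53 was described in human cells to speed the processing of miR-16 and to activate the miR-107 gene. Below 0 were miR-200c-3p (-0.44), miR-429-3p (-0.27), miR-200b-3p (-0.25), miR-141-3p (-0.11) and miR-200a-3p (-0.09), the miR-200 family, which represses Zeb1 and Zeb2 and marks epithelium. All 5 below 0 are thus of 1 family, from 2 genomic clusters, and are also among the epithelial markers whose sum was lower in both ASO libraries. That sum contains these 5, so it is not a separate observation. By library, the groups overlapped for miR-429-3p, miR-141-3p and miR-200a-3p. They did not for miR-200c-3p and miR-200b-3p, which held for 41.9% of the 482. The part of epithelial RNA in the values of the miR-200 family was not tested.

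Another list held 6 miRNAs described as repressing the p53 mRNA itself, 5 of them with a base mean of 10 or more. None of these passed in the authors' deposited table. Their log2 ratios were 0.28 for miR-33-5p, 0.09 for miR-25-3p, -0.20 for miR-125a-5p, -0.25 for miR-30d-5p and -0.51 for miR-125b-5p. Their median was -0.20, with 2 above 0 and 3 below, beside the same 1.21% passing over all miRNAs, and 53.1% above 0 with a median of 0.04 over the 482.

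**Figure D5:**
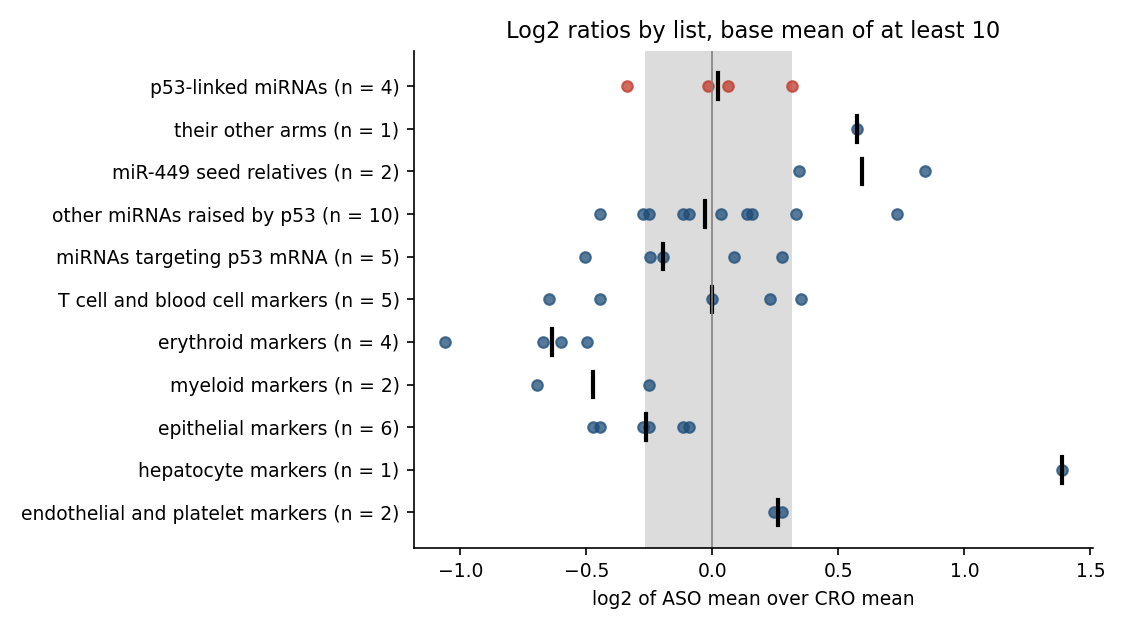
Points are miRNAs with a base mean of 10 or more, the x axis is the log2 of the ASO mean over the CRO mean, black ticks are list medians, and the shaded band spans the middle 50% of all 482 miRNAs (-0.27 to 0.32). The p53-linked miRNAs lie on both sides of 0, and the erythroid, myeloid and epithelial markers all lie below it.

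The miRNAs most like each member across the 4 libraries were found by the distance between centred log2(normalized count + 1) profiles, among 478 candidates. For miR-34a-5p these were miR-142a-3p, miR-185-5p and miR-669d-5p (distances 0.066, 0.11 and 0.12). For miR-192-5p they were miR-872-5p, miR-21a-5p and miR-503-5p (0.037, 0.089 and 0.13). For miR-194-5p they were miR-324-5p, let-7e-5p and miR-221-3p (0.030, 0.042 and 0.069). For miR-34c-5p they were miR-199a-3p and miR-199b-3p, which have identical values, and miR-669h-3p (0.19, 0.19 and 0.22). With 4 libraries such likeness is a description of these samples.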

How the data were processed

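The authors deposited 1 table of mature miRNAs with, per the file headers, signal values (mean normalized counts over all libraries and per group), a fold ratio of CRO over ASO, its log2, and a p-value with its adjusted p-value. A second deposited file counts the miRNAs called and was not used. The authors used DESeq, its version not stated, and mm9, per the submitters' processing notes. The aligner, trimming and miRNA annotation were not given there or in the labels. Ratios were turned to ASO over CRO.

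A group mean is a sum of 2 whole read counts, each divided by its size factor. With 15 digits given, the counts of all 8 members could be decoded in exactly 1 way, and size factors recomputed from the decoded counts (636 miRNAs above 0 in every library) matched to a relative 1e-09. Decoding was tested on simulated data. Decoded libraries carry no replicate number. miR-155-5p was entered with the split whose normalized counts were closest.

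limma 3.58.1 (R 4.3.3; trend, robust) was fitted to log2(normalized count + 1) of the miRNAs whose base mean reached 10, and without that filter for lower members, with Benjamini-Hochberg adjustment over all miRNAs fitted. This scale understates changes of low miRNAs. Counting intervals are exact (Clopper-Pearson, 95%). Python 3.11.15, numpy 2.4.6, scipy 1.17.1, pandas 2.3.3 and matplotlib 3.10.9 were used. All members were named, with list entries whose base mean reached 10 and the 3 nearest profiles of each member. Members and lists were chosen with earlier results of these data known. Annotation came from RefSeq and GENCODE M21.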

Additional observations from a re-analysis of the deposited data

How the results depend on the processing

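Precision is limited by 2 libraries per group and by CRO depths of 4949804 and 2812572 reads without miR-155-5p. No paired analysis was possible because the decoded libraries carry no replicate number. The 0 members past the adjusted p stayed 0 under an unadjusted p in the authors' deposited table. They stayed 0 in every limma setting with all 4 libraries for miRNAs whose base mean reached 10. The count became 2 (both miR-34b arms) by a 2-fold difference with no p. Such a difference was found for 66.7% of the 591 miRNAs with a base mean under 10, where both arms lie, and for 8.3% of the other 482. Of 122 alternative log2 ratios of the members, miR-34a-3p, miR-449a-5p and miR-449c-5p, 104 kept direction and side of the threshold, 15 turned sign and 3 newly passed. Upper quartile scaling turned miR-194-5p to 0.075. miR-215-5p turned to 0.66 with a pseudocount of 0.5, 0.32 with no filter, 0.38 by library totals, 0.37 by the upper quartile and 0.059 in limma-voom. Fits without 1 library ranged over -0.68 to 0.060 for miR-34c-5p, -1.34 to 0.69 for miR-34c-3p, -0.38 to 0.65 for miR-192-5p, -0.055 to 0.020 for miR-194-5p, -1.34 to 1.98 for miR-215-5p and 0.057 to 0.63 for the summed level of the miR-34 5p arms, whose highest value was without CRO library a. miR-34b-5p passed without ASO library a (2.73) or b (2.03), where the only group left with 2 libraries is CRO at 0 and 0 reads; miR-449a-5p passed without CRO library a. The cause of the other changes was not tested.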
